A study of Mus musculus with 6 samples.

Results

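Integrator is a complex of many subunits that binds RNA polymerase II, cleaves nascent RNA through its INTS11 endonuclease and can recruit the phosphatase PP2A. Messenger RNA levels were followed for the genes of its outer parts. These are the arm module (Ints10, Asun and Vwa9), the INTS6 subunit with its paralog (Ints6 and Ddx26b) and the SOSS complex (Ints3, Nabp1, Nabp2 and Inip). The genes were chosen by symbol from a fixed list, and all 9 symbols were found among the 24062 listed in the count table. Asun, Vwa9 and Ddx26b are older symbols of Ints13, Ints14 and Ints6l. All 9 passed the filter on low counts, with 1969 to 15677 counts per library, and entered the test of 15742 genes.

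The KO group held 3 mice with floxed Ints11 alleles and the Mx1Cre+ transgene, and the WT group held 3 littermates. All 6 mice were C57BL/6, and c-Kit+ bone marrow cells, a sort rich in blood stem and progenitor cells, were collected from each of them 4 days after poly(I:C), with 1 mouse per library. Poly(I:C) is an RNA mimic that triggers interferon and through it the Mx1 promoter. That promoter is active in many cell types, so deletion is not limited to blood cells. The labels give poly(I:C) for both groups and name neither the age of the mice nor whether the littermates carried Cre. The question addressed is which transcripts differ in progenitors 4 days after deletion of Ints11.

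As background, the arm subunits INTS10, INTS13 and INTS14 form a separable module at the edge of Integrator that binds nucleic acid and links the complex to other factors. INTS6 belongs to the phosphatase module, through which Integrator holds PP2A near promoters. INTS3 is an Integrator subunit and also the scaffold of SOSS, which binds single-stranded DNA at breaks. In SOSS it joins INIP and a single-strand binding protein, either SSB2 (from Nabp1) or SSB1 (from Nabp2).

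Total counts ranged from 127011537 to 142983542 in KO libraries and from 124074531 to 166860739 in WT libraries. Ints11, listed as Cpsf3l, had 64.3, 58.3 and 60.2 CPM in KO_339, KO_340 and KO_345, against 73.8, 92.3 and 78.9 CPM in WT_341, WT_343 and WT_344. CPM are counts relative to the library total after TMM scaling. Reads from every exon of Cpsf3l are counted, also from those the deletion leaves in place, so its level is only a partial check of the labels. Kit was at 220 to 238 CPM in KO and 199 to 221 CPM in WT libraries, without a call in either direction. All 11 markers of mature neutrophils were detected in every library. Their summed level was 43736 to 57430 CPM in KO libraries and 11423 to 36229 CPM in WT libraries, with WT_341 the highest of WT. Of these 11, 4 were called higher and 0 lower. The 11 stem and progenitor markers summed to 8984 to 10852 CPM in KO and 16574 to 22151 CPM in WT libraries, a sum dominated by the granule genes Mpo, Elane, Prtn3 and Ctsg, which fell. Cd34, Gata2, Hlf and Mecom rose, 3 markers did not pass, and the mean log2 CPM of the 11 was 7.76 to 7.83 in KO and 7.75 to 7.97 in WT libraries. On the second principal component, which held 23.1% of the variance, WT_341 lay at -59.9, while WT_343 lay at 29.6 and WT_344 at 16.5. Counts of Xist and a Y-linked gene marked KO_339, KO_340 and WT_341 as male and the other libraries as female.

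Of the 9 genes, 2 rose and 2 fell in KO libraries, and 5 did not pass the test. Nabp1 rose about 3-fold and Asun rose modestly, while Ints10 and Nabp2 fell. The SOSS genes included both the largest fitted rise and the largest fitted drop of the 9, in the pair that encodes its alternative DNA-binding subunits. A call needed a Benjamini-Hochberg adjusted p of 0.05 or less in the quasi-likelihood test of edgeR. Over all tested genes 35.9% were called, 16.0% higher and 19.9% lower. The count of 4 among 9 lay near that background. KO and WT libraries did not overlap for 6 of the 9, against 53.9% of all tested genes. KO was above for 3 (25.6% of all tested genes) and below for 3 (28.4%). The median log2 change of the 9 was -0.12, against 0.01 over all tested genes.

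**Figure D1:**
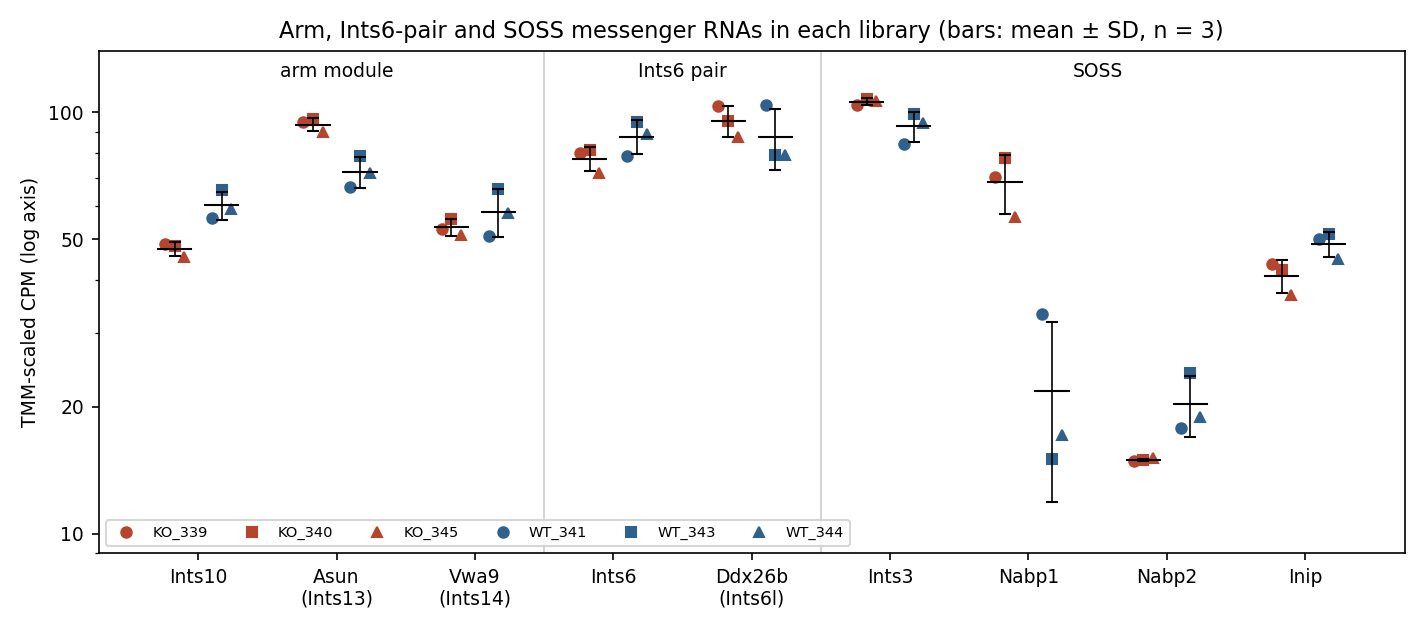
TMM-scaled CPM (log axis) of the 9 genes in each library, KO in red left of WT in blue, with the mean and SD of 3 libraries per genotype. Nabp1 sits at 56.4 CPM or more in the KO libraries and at 33.3 CPM or less in the WT libraries, whereas the other genes differ far less between genotypes.

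Nabp1, which encodes SSB2, held 70.3, 77.8 and 56.4 CPM in KO_339, KO_340 and KO_345, against 33.3, 15.05 and 17.2 CPM in WT_341, WT_343 and WT_344. Every KO library lay above every WT library, and among WT libraries WT_341 lay apart on the high side. The means were 68.2 ± 10.9 CPM in KO and 21.8 ± 9.97 CPM in WT libraries (SD, n = 3 each). The fitted rise was 3.12-fold, with a 95% interval from 1.92 to 5.07 (adjusted p = 0.00829, edgeR). The log2 change was 1.64 with all libraries and lay between 1.43 (without WT_343) and 2.07 (without WT_341) with 1 library left out, and the gene passed in each of these fits. The WT libraries had the same order for Nabp1 and for the summed neutrophil markers, which stood at 36229, 11423 and 21342 CPM in WT_341, WT_343 and WT_344. The KO libraries did not share it. Their markers stood at 57430, 44101 and 43736 CPM in KO_339, KO_340 and KO_345, while Nabp1 was highest in KO_340. With the mean level of those markers as a covariate the log2 change of Nabp1 was 0.94 and no longer passed (adjusted p = 0.0922, edgeR). Since the marker level was higher in every KO library than in every WT library, it overlaps with genotype, and its part in the result was not tested. In sorted bulk cells, a change in the mix of cells and a change in RNA per cell cannot be told apart.

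Nabp2, which encodes SSB1, held 14.9, 14.9 and 15.1 CPM in KO_339, KO_340 and KO_345, against 17.9, 24.1 and 18.98 CPM in WT_341, WT_343 and WT_344. The KO libraries, at 1969 to 2170 counts, differed by less than counting error, and each was under the lowest WT library, while WT_343 was the highest. The means were 14.97 ± 0.115 CPM in KO and 20.3 ± 3.31 CPM in WT libraries (SD, n = 3 each), and the log2 change was -0.44 ± 0.13 (SE; adjusted p = 0.0327, edgeR). The call was lost when any KO library or WT_344 was left out, with upper-quartile scaling (-0.30) or library totals (-0.34), with sex as a covariate (adjusted p = 0.0566) and with the neutrophil covariate (-0.13, adjusted p = 0.513, edgeR). Nabp2 lies on the reverse strand of chromosome 10 (GRCm38, 128401395 to 128411492) and overlaps Ankrd52 on the other strand, with an exon overlap of up to 153 bp. Ankrd52 fell as well, at 134.7 ± 16.3 CPM in KO and 179.1 ± 19.96 CPM in WT libraries (SD, n = 3 each), with a log2 change of -0.41. The sources used here do not say whether counting used strand, so reads in the overlap may belong to either gene.

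**Figure D2:**
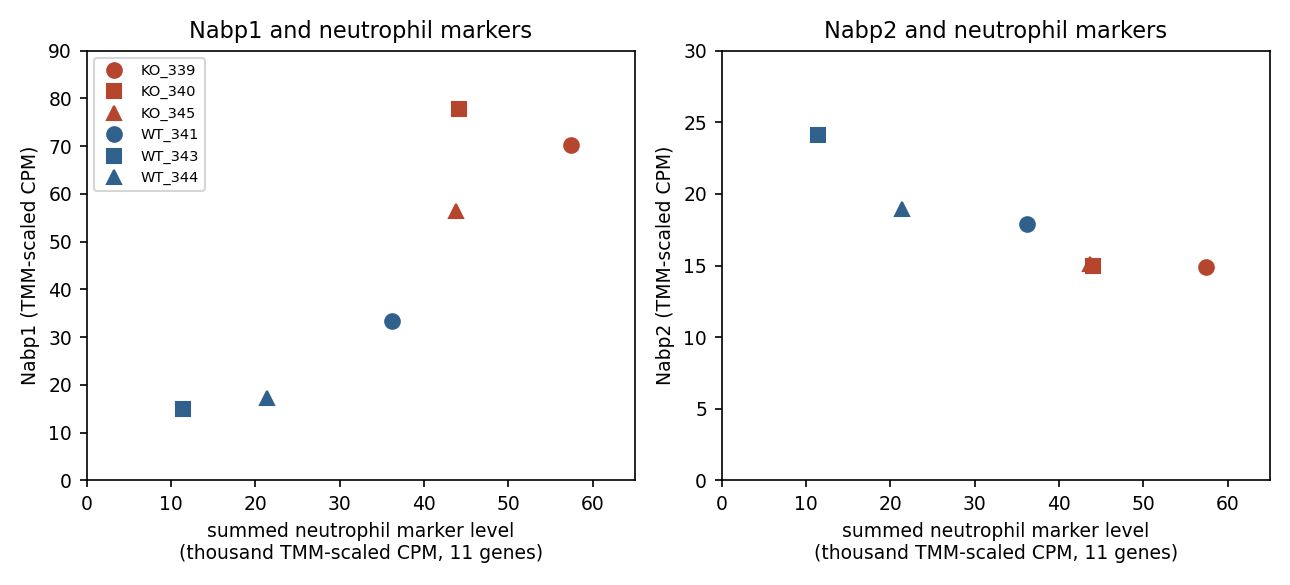
TMM-scaled CPM of Nabp1 (left) and Nabp2 (right) against the summed level of 11 mature neutrophil markers, 1 point per library, KO in red and WT in blue. The 3 KO libraries have more marker RNA (43736 to 57430 CPM) than the 3 WT libraries (11423 to 36229 CPM), and WT_341 lies closest to them on both axes for Nabp1.

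The paralogs were also compared as a ratio within each library, which needs no scaling between libraries. The ratio rests on the same counts as the fits and cannot show which of the paralogs moved. Nabp1 had 4.72, 5.21 and 3.74 counts per count of Nabp2 in KO_339, KO_340 and KO_345, against 1.86, 0.625 and 0.906 in WT_341, WT_343 and WT_344. The lowest KO ratio was above the highest WT ratio. The ratio was 4.44-fold higher in KO libraries, with a difference of 2.15 on the log2 scale (exact two-sided permutation test over 20 assignments, p = 0.10, the smallest this design allows, and 0.20 adjusted over the 2 ratios tested). Per kilobase of annotated exons, Nabp1 stood above Nabp2 in all 3 KO libraries (ratios of 1.39, 1.54 and 1.10) and below it in all 3 WT libraries (0.550, 0.184 and 0.267). With the longest transcript as the length the ratio in KO_345 was 1.07, and the order held in each library.

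The start regions of this pair are shown because these genes moved apart in the data. The windows run from 250 bases before to 50 after a RefSeq start (GRCm38.p6), on the gene's strand. They cover chr1:51478350-51478649 (reverse strand) for Nabp1 and chr10:128409801-128410100 (reverse strand) for Nabp2, which has 3 listed starts, of which the window with the most CpG is printed. Capitals mark, on either strand, the motif CCAAT known for NF-Y, the motif GGGCGG known for SP1 and the motif CCGGAAG known for ETS factors. No 2 matches overlapped in the printed windows, and the motifs searched were chosen after the values were seen.
Nabp1: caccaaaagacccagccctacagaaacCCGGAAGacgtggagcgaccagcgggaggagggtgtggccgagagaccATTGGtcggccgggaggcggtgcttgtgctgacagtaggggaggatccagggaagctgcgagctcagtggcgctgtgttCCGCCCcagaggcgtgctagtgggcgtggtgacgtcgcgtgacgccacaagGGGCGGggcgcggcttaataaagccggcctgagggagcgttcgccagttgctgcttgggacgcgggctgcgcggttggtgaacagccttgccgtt
Nabp2: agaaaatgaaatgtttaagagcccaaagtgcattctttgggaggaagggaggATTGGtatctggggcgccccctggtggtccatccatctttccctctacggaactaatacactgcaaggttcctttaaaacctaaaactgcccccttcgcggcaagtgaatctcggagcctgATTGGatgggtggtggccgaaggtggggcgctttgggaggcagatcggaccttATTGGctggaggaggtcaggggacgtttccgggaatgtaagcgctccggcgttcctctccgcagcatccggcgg
The Nabp1 window held 28 CpG and 66.0% G and C, and the Nabp2 window 16 CpG and 55.7%, against medians of 13 CpG and 56.3% over 21263 windows of protein-coding genes. The Nabp1 window had 1 match to the NF-Y motif, 2 to the SP1 motif and 1 to the ETS motif, and this Nabp2 window had 3 to the NF-Y motif and 0 to the others. Windows were found for 8 of the 9 genes, 11 in all, without one for Ints10. The NF-Y motif stood in 9 of these 11 windows, against 38.2% of all windows, and in at least 1 window of each of the 8 genes whichever way their RNA moved. The SP1 motif stood in 7 of 11 against 46.2%, and the ETS motif in 1 of 11 against 11.6%. The windows of Vwa9 overlap and share their NF-Y and SP1 matches, so these sites are counted more than once. The Nabp2 windows that are not printed held no match to any motif searched. None of the 11 held GCCATNTT (6.37% of all windows), known for YY1, or the E2F variants TTTCCCGC (1.41%) and TTTGGCGC (0.635%).

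Ints3, the scaffold shared by Integrator and SOSS, held 103.9, 107.6 and 106.6 CPM in KO_339, KO_340 and KO_345, against 84.2, 99.2 and 94.4 CPM in WT_341, WT_343 and WT_344. All KO libraries lay above all WT libraries, by a small margin over WT_343. The log2 change was 0.20 ± 0.08 (SE) and did not pass (adjusted p = 0.0897, edgeR), with a 95% interval from 0.01 to 0.38. It passed under 5 of 15 alternatives, and its log2 change lay between 0.12 and 0.36 over all of them.

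Inip, the small subunit that completes SOSS, held 43.6, 42.4 and 36.8 CPM in KO_339, KO_340 and KO_345, against 49.9, 51.4 and 44.9 CPM in WT_341, WT_343 and WT_344. Each KO library lay below each WT library, with KO_339 and WT_344 close together. The log2 change of -0.25 ± 0.10 (SE) did not pass (adjusted p = 0.0779, edgeR; 95% interval -0.48 to -0.03), but passed with sex as a covariate (-0.30, adjusted p = 0.0459). Thus of the 4 SOSS genes 1 rose, 1 fell and 2 did not pass, and the median of their log2 changes was -0.03. Among all tested genes 16.0% were called higher and 19.9% lower, and the SOSS counts were not tested against these shares.

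In the arm module, which ties Integrator to other nuclear factors, calls also went in both directions. Asun, which encodes INTS13, held 94.6, 96.2 and 89.7 CPM in KO_339, KO_340 and KO_345, against 66.3, 78.7 and 71.6 CPM in WT_341, WT_343 and WT_344. The KO libraries lay close together and above all WT libraries. The means were 93.5 ± 3.41 CPM in KO and 72.2 ± 6.19 CPM in WT libraries (SD, n = 3 each), and the gene rose by 0.37 ± 0.08 on the log2 scale (SE; adjusted p = 0.0149, edgeR). It passed under 14 of 15 alternatives, the exception being the fit without WT_344 (0.36, adjusted p = 0.0572). Asun lies on the reverse strand of chromosome 6 (146549632 to 146577835). Exons at its start overlap those of Fgfr1op2 on the other strand by up to 57 bp, and that gene had a log2 change of -0.15 without a call.

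Ints10, the arm subunit that joins INTS13 and INTS14, held 48.8, 48.3 and 45.3 CPM in KO_339, KO_340 and KO_345, against 56.2, 65.4 and 59.02 CPM in WT_341, WT_343 and WT_344. Even the highest KO library was under the lowest WT library. The means were 47.5 ± 1.87 CPM in KO and 60.2 ± 4.71 CPM in WT libraries (SD, n = 3 each), and the gene fell by 0.34 on the log2 scale (SE 0.08; adjusted p = 0.0195, edgeR). The call was lost when any KO library or WT_344 was left out, with upper-quartile scaling (adjusted p = 0.0600) and with the neutrophil covariate (-0.20, adjusted p = 0.211, edgeR). Ints10 lies on the forward strand of chromosome 8 (68793929 to 68831667), and no listed gene shares its exons.

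Vwa9, which encodes INTS14, the partner of INTS13 in the arm, held 52.9, 55.9 and 51.2 CPM in KO_339, KO_340 and KO_345, against 50.9, 65.9 and 57.6 CPM in WT_341, WT_343 and WT_344. The genotypes overlapped, with WT_341 the lowest of the 6. The log2 change was -0.12 (95% interval -0.37 to 0.12; adjusted p = 0.374, edgeR). It was 0.01 with upper-quartile scaling and 0.14 with the neutrophil covariate, and passed under 0 of 15 alternatives. So 1 of the 3 arm genes rose, 1 fell and 1 did not pass. The shares over all tested genes were 16.0% higher and 19.9% lower, and so small a count was not tested against them.

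**Figure D3:**
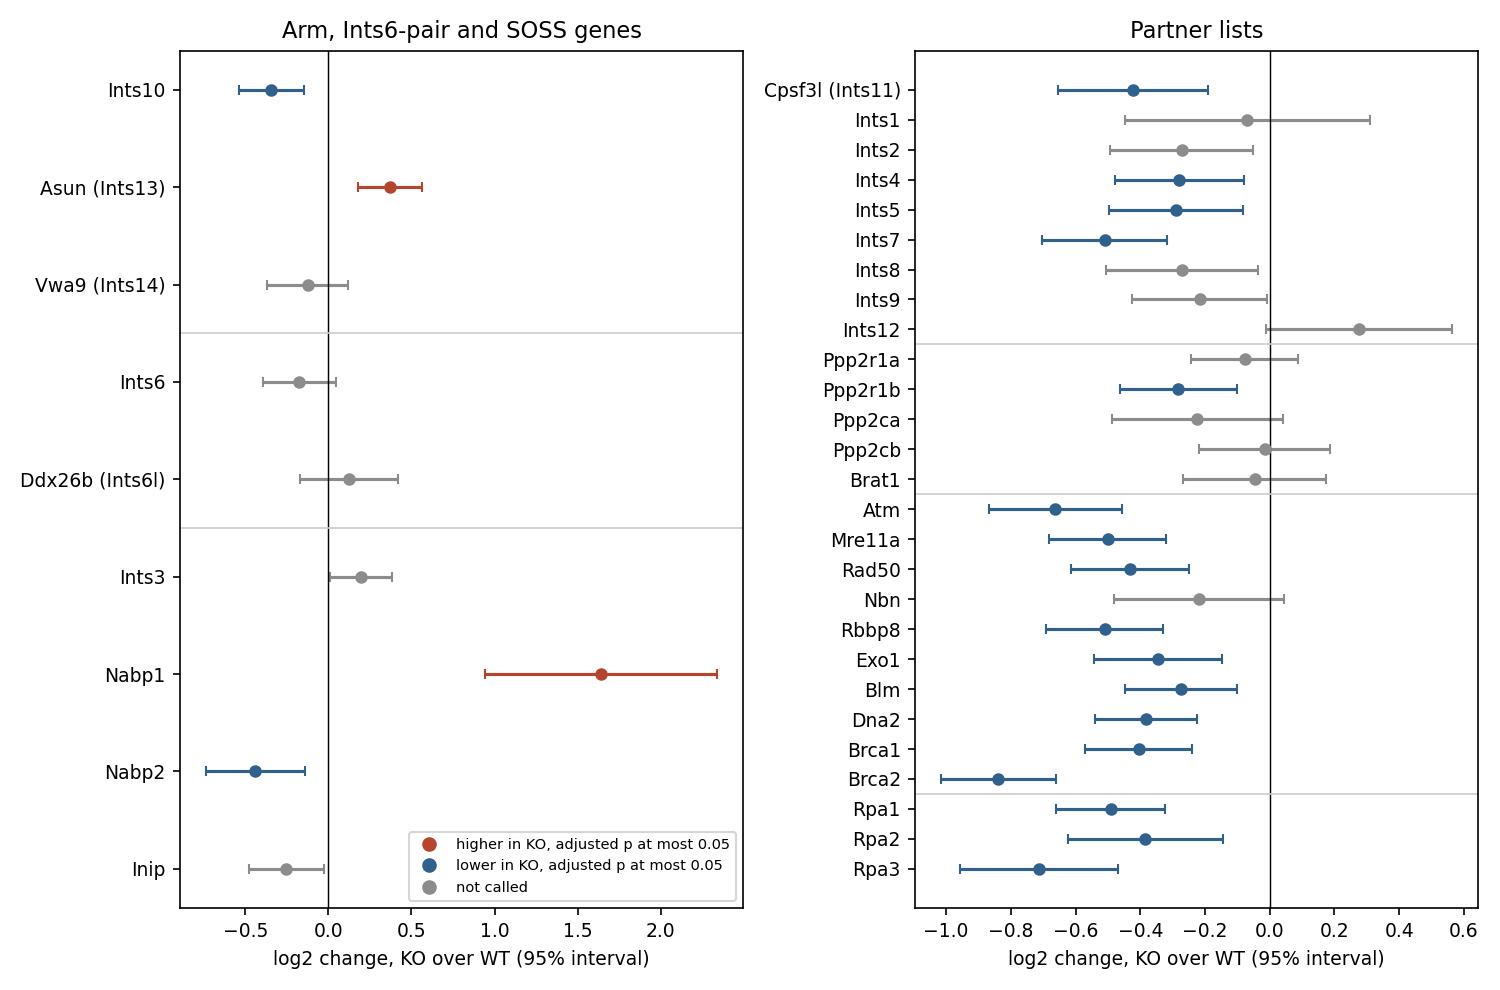
Fitted log2 change of KO over WT with its 95% interval for the 9 genes (left, by module) and for 4 partner lists (right: other Integrator subunits, PP2A and assembly partners, break repair partners, replication protein A). Red and blue mark genes called higher and lower, and grey those that did not pass; Nabp1 at 1.64 and Asun at 0.37 are called higher, and no partner gene is, although Ints12 is with upper-quartile factors.

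Ints6, which encodes the subunit of the phosphatase module, held 80.05, 81.2 and 71.6 CPM in KO_339, KO_340 and KO_345, against 78.96, 94.99 and 88.8 CPM in WT_341, WT_343 and WT_344. The overlap came from WT_341, which lay below KO_339 and KO_340. The log2 change was -0.17 (95% interval -0.39 to 0.04; adjusted p = 0.174, edgeR), and without WT_341 it was -0.25 and passed (adjusted p = 0.0346).

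Its paralog Ddx26b, or Ints6l, held 103.6, 95.3 and 87.4 CPM in KO_339, KO_340 and KO_345, against 104.3, 79.1 and 79.1 CPM in WT_341, WT_343 and WT_344. The 3 male libraries held more than each of the 3 females, whichever their genotype, and the gene lies on chromosome X (56454857 to 56507843, forward strand). The log2 change was 0.13 (95% interval -0.17 to 0.42; adjusted p = 0.460, edgeR). It was 0.04 with sex as a covariate, 0.26 without WT_341, where it passed (adjusted p = 0.0382), and -0.16 with the neutrophil covariate (adjusted p = 0.413, edgeR). Within libraries, Ddx26b had 1.29, 1.17 and 1.22 counts per count of Ints6 in KO_339, KO_340 and KO_345, against 1.32, 0.832 and 0.891 in WT_341, WT_343 and WT_344. WT_341 had the highest of the 6 ratios, so the genotypes overlapped. The log2 difference was 0.31 (exact two-sided permutation test, p = 0.40, 0.40 adjusted over the 2 ratios), in a design whose smallest p is 0.10 and which therefore cannot decide the matter.

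**Figure D4:**
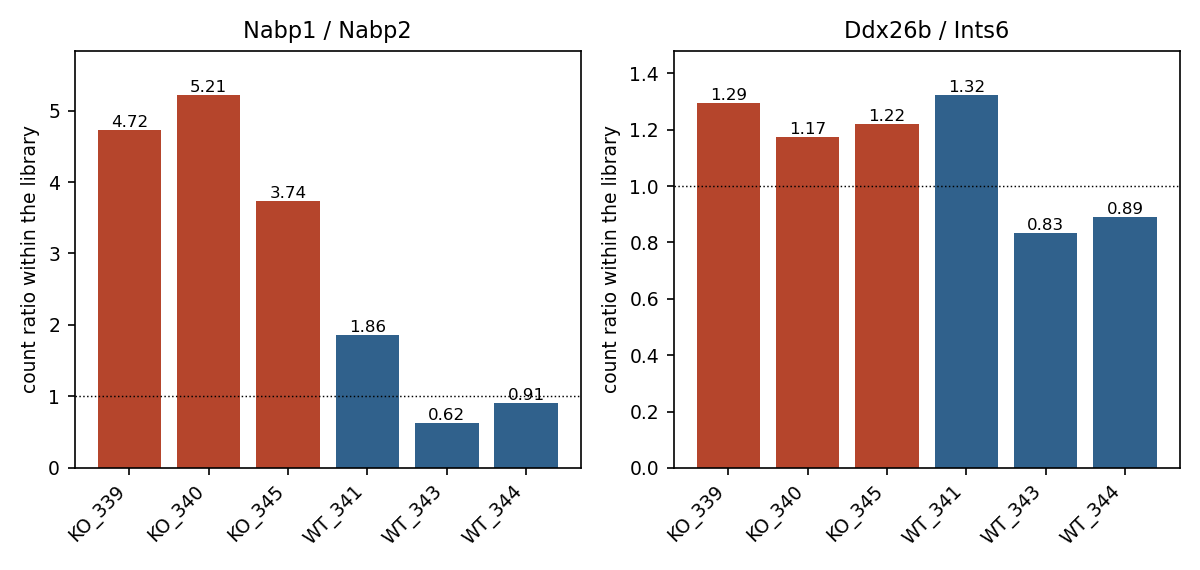
Count ratio of Nabp1 to Nabp2 (left) and of Ddx26b to Ints6 (right) within each library, KO bars in red left of WT bars in blue, with equality dotted. The Nabp ratio is 3.74 or more in KO libraries and 1.86 or less in WT libraries, whereas the Ints6 ratio of WT_341 (1.32) exceeds those of all KO libraries.

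The levels per kilobase of annotated exons placed Ints3 first in KO libraries (18.7 ± 0.341 CPM per kb), followed by Vwa9 (16.3 ± 0.720) and Ddx26b (13.3 ± 1.13), and Ints6 last (4.62 ± 0.311; SD, n = 3). In WT libraries Vwa9 (17.7 ± 2.29 CPM per kb) and Ints3 (16.3 ± 1.35) stood first and did not differ beyond their spread. Nabp1 ranked 5 of 9 per kilobase in KO libraries (8.02 ± 1.28 CPM per kb) and last in WT libraries (2.57 ± 1.17). Ints10 (6.89 ± 0.272) and Inip (6.83 ± 0.601) did not differ beyond their spread in KO libraries, and neither did Ints10, Asun, Inip and Nabp2 in WT libraries, which lay between 8.10 and 8.74 CPM per kb on average. The order in between depended on the length used. With the longest transcript, Ints3 was first and Ints6 last in KO libraries, but Asun was second (20.3 CPM per kb), Ddx26b ranked 5 (13.3) and Nabp1 ranked 4 (14.2). In WT libraries Ints3 was then first and Nabp1 last, and Ddx26b ranked 7 (12.2).

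Profiles over the 6 libraries were compared by the mean absolute difference of log2 CPM, each gene centred on its own mean. The closest of the 36 pairs were Vwa9 and Ints6 (0.05), Ints10 and Nabp2 (0.07) and Ints6 and Inip (0.08), so pairs across modules were closer than Asun with its arm partners Vwa9 (0.25) and Ints10 (0.36). Asun was closest to Ints3 (0.09). Nabp1 and Nabp2 were the farthest apart (1.07). Among 14321 named genes, the 3 with profiles closest to Nabp1 were Ttc30a2 (0.08), Ccdc63 (0.09) and Aox2 (0.10), all far less abundant. In WT_343, Ttc30a2 was at 0.0949 CPM and Aox2 at 0.0569 CPM. Such levels rest on few reads, so distances this small lie within the counting error of these genes. Ttc30a2, an intraflagellar transport gene, averaged 0.512 ± 0.0654 CPM in KO and 0.139 ± 0.0759 CPM in WT libraries. Ccdc63, a coiled-coil gene, averaged 1.82 ± 0.234 CPM in KO and 0.547 ± 0.245 CPM in WT libraries, and the aldehyde oxidase gene Aox2 averaged 0.263 ± 0.0419 CPM in KO and 0.0852 ± 0.0391 CPM in WT libraries (SD, n = 3 each).

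Among partner genes of the same machinery every call in the main fit (edgeR, TMM scaling, all 6 libraries, no covariate) was a fall. Ints12, an Integrator subunit chosen for mention after its values were seen, did not pass there (log2 change 0.28, adjusted p = 0.115, edgeR). It was called higher with upper-quartile factors (0.41), and also under TMM scaling with limma-voom (0.40) and without WT_341 (0.37). With the neutrophil covariate (0.04, adjusted p = 0.877, edgeR) and with sex as a covariate (0.22) it was not called. Of 9 other Integrator subunits (the targeted Cpsf3l included), 4 fell and 0 rose, and the median log2 change was -0.27. Over all tested genes 19.9% fell and 16.0% rose. With upper-quartile factors 2 were lower and 1 higher. Ints7, a backbone subunit, fell to 100.9 ± 5.34 CPM in KO libraries, against 143.7 ± 11.03 CPM in WT libraries (SD, n = 3 each; log2 change -0.51, adjusted p = 0.00596, edgeR). Cpsf3l (-0.42, adjusted p = 0.0174), Ints4 (-0.28, adjusted p = 0.0387) and Ints5 (-0.29, adjusted p = 0.0393) also fell (edgeR). Ints4 and Ints5 passed under 5 of 15 alternatives each. With the neutrophil covariate 0 of the 9 subunits passed, against 1255 of 15742 tested genes. Among the PP2A subunits and the assembly partner Brat1, 1 of 5 fell, the scaffold gene Ppp2r1b (-0.28, adjusted p = 0.0277, edgeR), which passed under 6 of 15 alternatives. The catalytic gene Ppp2ca (-0.22), the scaffold gene Ppp2r1a (-0.08) and Brat1 (-0.05) did not pass.

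Of 10 genes that work with SOSS in the resection and repair of DNA breaks, 9 fell and 0 rose, with a median log2 change of -0.42. Brca2, a gene of homologous recombination, fell to 78.8 ± 3.23 CPM in KO libraries, against 140.8 ± 8.95 CPM in WT libraries (SD, n = 3 each; log2 change -0.84, adjusted p = 0.00160, edgeR). The break-sensing kinase gene Atm (-0.66), the resection factor gene Rbbp8 (-0.51) and the nuclease gene Mre11a (-0.50) fell with adjusted p-values from 0.00380 to 0.00525 (edgeR), and Nbn, their partner in sensing breaks, did not pass (-0.22). Replication protein A, the general single-strand binding complex, had 3 of 3 genes lower: Rpa3 (-0.71), Rpa1 (-0.49) and Rpa2 (-0.38). With the neutrophil covariate 4 of the 10 repair genes were called lower, while Brca1 (-0.38, adjusted p = 0.0508), Blm (-0.36, adjusted p = 0.0568) and Dna2 (-0.33, adjusted p = 0.0572) just missed the threshold. These 3 were chosen for mention after their values were seen, and their log2 changes without the covariate were -0.41, -0.27 and -0.38 (edgeR). Rpa2 did not pass with the covariate (-0.17, adjusted p = 0.351, edgeR). Nabp1 (0.94, adjusted p = 0.0922, edgeR) and Nabp2 (-0.13, adjusted p = 0.513, edgeR) did not pass with it either. Of all 15742 tested genes, 1255 were called in either direction with it. In the main fit Nabp1 thus rose while Nabp2, 3 of 3 genes of replication protein A and 9 of 10 repair genes were called lower. Over all tested genes 19.9% were called lower without the covariate. Whether these counts or the rise of Nabp1 differ from those of other genes of like level was not tested.

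Scaling bears on the small changes among the 9. Upper-quartile factors shifted the median over all genes to a log2 change of 0.15, and library totals to 0.11, and 64.2% and 58.8% of all calls were then higher, against 44.5% with TMM. Of the 9 genes, 3 were then higher and 0 lower with upper-quartile factors, and 3 higher and 1 lower with library totals. Relative to the median of all genes, Ints10 lay at -0.35 and Nabp2 at -0.45 under each of the 4 scalings, Asun at 0.36 and Nabp1 between 1.62 and 1.63. A scaling shifts all genes nearly alike, and the median with them. These values therefore had to agree, and they cannot show which scaling is right or whether the small changes hold.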

How the data were processed

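Strand-specific Illumina TruSeq messenger RNA libraries were made from TRIzol RNA of individual mice and sequenced as paired reads of 75 bp, per the labels' protocols. The table deposited by the authors holds raw counts of reads for each gene symbol and library, not normalized. FastQC, Trimmomatic, STAR, HTSeq and the build mm10 are named without versions, per the submitters' processing notes. The sources used here do not give the annotation, the strand setting or the handling of multiply mapping reads. No column belonged to other samples, and groups came from the sample titles.

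The genotype test was the quasi-likelihood test (glmQLFit, robust, then glmQLFTest) of edgeR 4.0.16 under R 4.3.3, after filterByExpr (minimum count 10, minimum total 15) and TMM scaling. P-values were adjusted by Benjamini-Hochberg over 15742 genes, with a threshold of 0.05, and 95% intervals came from the same fit. Log2 CPM used a prior count of 2. The fit was tested on simulated counts. Symbols were matched through RefSeq synonyms to GENCODE M21 (GRCm38, the assembly of mm10), all 9 with success, and promoter windows came from RefSeq on GRCm38.p6. Alternatives were other scalings, filters and tools (DESeq2 1.42.0, limma 3.58.1), covariates for sex and neutrophil markers, and each library left out. All 9 members are named, with Cpsf3l, up to 4 genes with the smallest adjusted p per partner list and the 3 profiles closest to the member with the smallest adjusted p. A planned gene of the break repair list is not reported here. The genes, lists and rules were chosen with earlier results of these data known.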

Additional observations from a re-analysis of the deposited data

How the results depend on the processing

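No paired analysis was run, because the labels used here give mouse numbers but no litter by which KO and WT mice could be paired. Values below are log2 changes of KO over WT. Upper-quartile scaling ended the calls of Ints10 (-0.21) and Nabp2 (-0.30) and added Ints3 (0.33). Library totals ended that of Nabp2 (-0.34) and added Ints3 (0.30). These scalings moved the median over all genes to 0.15 and 0.11. A minimum of 1 CPM in 3 libraries also added Ints3 (0.27). Limma-voom with quality weights added Ddx26b (0.27) and Ints3 (0.17). With sex as a covariate Nabp2 (-0.39) was lost and Inip (-0.30) passed. With the neutrophil covariate 2 of the 9 genes, 6 of 27 partner genes and 1255 of all 15742 tested genes passed. Ints3 (0.36) was then added, and Ints10 (-0.20), Nabp1 (0.94) and Nabp2 (-0.13) were lost. DESeq2, median-of-ratios factors and no filter on low counts kept the calls of all 9 genes.

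Over the 6 fits that leave out 1 library, 1 (without WT_344) to 6 (without WT_341) of the 9 genes passed, 2 without each KO library, and 10 (without KO_345) to 22 (without WT_341) of the partner genes, 11 without KO_339 or KO_340. Of all tested genes 2302 of 15886 (without KO_339) to 7879 of 16185 (without WT_341) passed. The counts were 2966 of 15973 without KO_345, 3270 of 16029 without WT_344, 3316 of 16066 without KO_340 and 4144 of 16042 without WT_343. The 9 genes, the partner genes and all tested genes each had the most calls without WT_341, so that swing is not particular to the 9. The log2 changes ranged from -0.40 to -0.28 for Ints10, 0.30 to 0.43 for Asun, 1.43 to 2.07 for Nabp1, -0.25 to -0.088 for Ints6, 0.051 to 0.26 for Ddx26b, and -0.54 to -0.31 for Nabp2. What caused these differences between fits was not tested. Ints10, Asun, Nabp1 and Nabp2, the genes of the 9 called in the main fit, kept their sign under the alternatives run. Ddx26b, not called there, was called higher with limma-voom (0.27) and without WT_341 (0.26) but lay at -0.16 with the neutrophil covariate. Each of the 9 genes had at least 1969 counts per library, and 3 mice per group limit what could be called.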
